A study of Mus musculus with 672 samples.

Results

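The cells described here are embryonic mouse pancreas cells with transcripts of Neurod1, a basic helix-loop-helix transcription factor of the endocrine lineage. They were chosen by their own reads: at least 30 CPM (reads of the gene scaled to a common total of gene reads per cell) of Neurod1 and under 300 CPM of Col3a1, a fibrillar collagen of mesenchyme. Cells were kept where gene reads reached 100000, detected genes reached 1500 and the mitochondrial share did not exceed 20%. This left 601 of 672 wells, of which 50 met the rule. They are called Neurod1 cells below. They are set beside the 311 other kept cells with at least 30 CPM of Epcam, an adhesion protein of epithelium.

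The pancreas cells came from C57BL/6 mice of embryonic stage E13.25 or E15.25 (days after conception). Antibody-stained cells were sorted singly into 7 plates of 96 wells for full-length RNA sequencing. No treatment or mutant allele is named in the labels, and the antibodies and sort gates are not given. The E13.25 group is 4 plates numbered by pancreas, with no region named, and the titles of plate 4 carry a second mouse number. The E15.25 group is the tip of bud 1, the tip of bud 2 and the trunk of bud 2, so 2 of its 3 plates share a bud, and the protocol text attached to these cells speaks of E13.25 embryos. Whether each plate came from its own embryo is not stated, so a p-value here reflects plate-to-plate spread, part of which may be technical.

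In the developing pancreas, a burst of the transcription factor Neurog3 turns a cell of the ductal trunk toward the endocrine fate. Neurog3 switches on a cascade of factors, Neurod1 among them, after which its own transcripts are lost. The cell then leaves the cell cycle, fills secretory granules with chromogranins and processing enzymes, and takes on a hormone: insulin in beta cells, glucagon in alpha, somatostatin in delta, pancreatic polypeptide in PP and ghrelin in epsilon cells.

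Neurog3 and Neurod1 bind E-boxes, the motif CANNTG, so the sequence before the start of 3 genes that mark successive stages of these cells is shown. It is RefSeq sequence of build GRCm38.p6 (mm10), 5′ to 3′ on the strand of the gene, with every CANNTG in capitals. Each run lies within the 250 bases before the RefSeq start and stops where GENCODE annotates an exon.
Neurog3, chr10:62132840-62133089, plus strand: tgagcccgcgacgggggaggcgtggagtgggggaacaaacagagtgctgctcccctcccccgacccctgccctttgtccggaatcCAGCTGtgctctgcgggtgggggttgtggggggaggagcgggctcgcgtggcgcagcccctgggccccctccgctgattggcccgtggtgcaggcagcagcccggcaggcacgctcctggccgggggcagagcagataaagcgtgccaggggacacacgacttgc
Neurod1, chr2:79456786-79456886, minus strand: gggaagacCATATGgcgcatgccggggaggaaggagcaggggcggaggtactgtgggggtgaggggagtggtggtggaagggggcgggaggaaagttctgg
Chga, chr12:102554691-102554940, plus strand: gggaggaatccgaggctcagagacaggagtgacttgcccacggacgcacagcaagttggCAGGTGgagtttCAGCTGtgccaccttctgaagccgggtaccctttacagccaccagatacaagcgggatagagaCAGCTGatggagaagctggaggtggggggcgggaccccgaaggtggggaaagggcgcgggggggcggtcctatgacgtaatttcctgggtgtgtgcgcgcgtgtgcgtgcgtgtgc
The Neurog3 window held 1 E-box, the Neurod1 window 1 and the Chga window 3. Of 32851 promoter windows of 250 bases in the table, 66.2% held at least 1 CANNTG, which reads the same on both strands, and 12.2% held at least 3. The windows of Fev and of the first start of Pax6 held none, and that of Chgb held 1. The narrower motif CAGATG, or CATCTG on the other strand, was in none of these windows and in 14.4% of all windows. No entry for Pax4 was in the table. A match is a description of letters and was not tied to binding here.

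Most of the cells carried several of the genes that mark the lineage. The rule used Neurod1, whose level ran from 44.2 to 2907 CPM with a median of 520 CPM in the Neurod1 cells. The highest level under the limit was 23.5 CPM, and 375 of the 601 kept cells had no Neurod1 read. On the Col3a1 side the highest Neurod1 cell had 251 CPM and the lowest cell left out had 476 CPM. Of the other 5 genes that mark the lineage, Chgb passed 30 CPM in 40 of 50 cells, Chga in 37, Pax4 in 36, Pax6 in 36 and Fev in 23. Chga and Chgb encode the granule proteins chromogranin A and B, Pax4 and Pax6 are paired-box transcription factors, and Fev is an ETS factor known from serotonin neurons and endocrine precursors. All 6 markers, Neurod1 included, passed 30 CPM in 13 cells and 5 of them in 18 cells. In the 311 other epithelial cells, Chgb passed 30 CPM in 25, Chga in 22, Pax4 in 13, Pax6 in 8 and Fev in 4. Among these 311 are 9 cells with Neurod1 that were left out for their Col3a1. All 4 with Fev were such cells: well 92 of tip 1, well 21 of tip 2 and wells 10 and 50 of trunk 2. These levels come from the cells that the rule divided and carry no test.

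In mm10, Neurod1 (ENSMUSG00000034701) lies at chr2:79452521-79456751 on the minus strand, Pax6 (ENSMUSG00000027168) at chr2:105668900-105697364 and Chgb (ENSMUSG00000027350) at chr2:132781278-132795079, both on the plus strand. Fev (ENSMUSG00000055197) lies at chr1:74881509-74885419 and Pax4 (ENSMUSG00000029706) at chr6:28442334-28449353, both on the minus strand. Chga (ENSMUSG00000021194) lies at chr12:102554969-102565028 and Neurog3 (ENSMUSG00000044312) at chr10:62133090-62134763, both on the plus strand. Values are reads over the whole gene.

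The Neurod1 cells were found on every plate. E13.25 plates 1 to 4 held 7, 2, 10 and 10, and E15.25 tip 1, tip 2 and trunk 2 held 3, 5 and 13. As a share of the epithelial cells of the plate they were 21.2% (Wilson 95% interval 10.7% to 37.8%), 10.5% (2.94% to 31.4%), 17.2% (9.64% to 28.9%) and 20.4% (11.5% to 33.6%) at E13.25. At E15.25 they were 4.92% in tip 1 (1.69% to 13.5%), 7.69% in tip 2 (3.33% to 16.8%) and 17.1% in trunk 2 (10.3% to 27.1%). By this rule both tip plates lay below every E13.25 plate, and the single trunk plate lay among them. The order depends on the Col3a1 limit. Wells 1, 6, 21, 41 and 48 of tip 2 had Neurod1 too, but Col3a1 kept them out. They count among the other epithelial cells of that plate. The mean share was 17.3% ± 4.86 (SD, n = 4) at E13.25 and 9.91% ± 6.39 (SD, n = 3) at E15.25. The difference of -7.44 percentage points did not pass an exact two-sided permutation test over plates (p = 0.114), in which 4 against 3 plates cannot go below 0.0571. With no Col3a1 limit the difference was -3.59 percentage points (p = 0.457, same permutation test). Since the sort gates are not given, a share among sorted cells is not a share of the tissue.

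**Figure D1:**
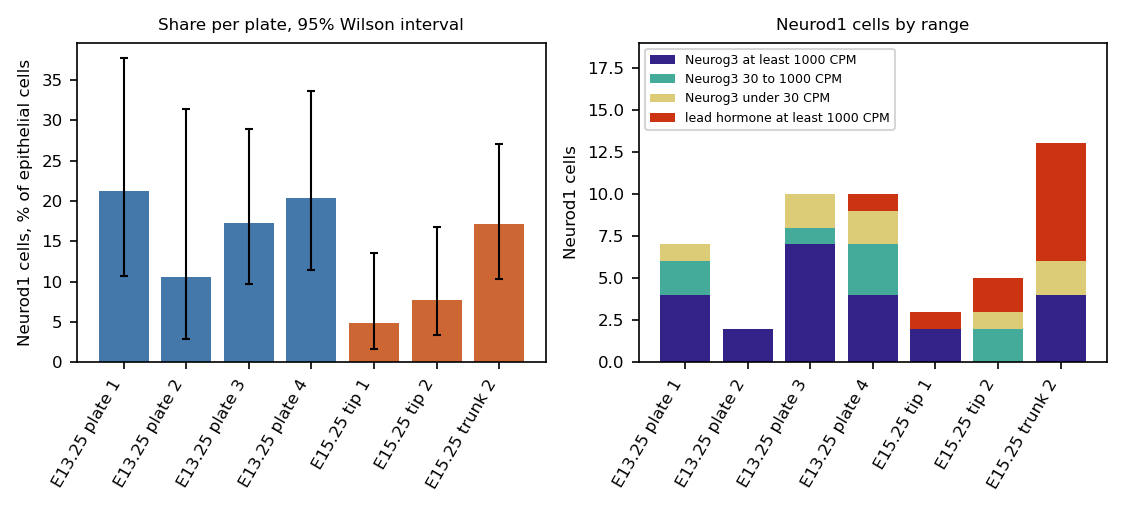
Left, Neurod1 cells as a percent of epithelial cells on each of the 7 plates (bars; whiskers are Wilson 95% intervals; blue E13.25, orange E15.25). Right, the number of Neurod1 cells on each plate by range of Neurog3 or lead hormone; cells with a lead hormone sit on E13.25 plate 4 (1 cell) and on the 3 E15.25 plates (10 cells).

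Reads per Neurod1 cell ran from 133397 to 3333370 (median 840988), against a median of 1043834 in the other epithelial cells, with medians of 8786 and 9313 genes. Thinned to 100000 reads each, the medians were 6014 and 6338 genes. No unique molecular identifiers were used. The Wilson intervals of the shares cover the error of counting cells only. No 2 kept wells had identical counts. Reads of other cell types were present to differing degrees. Endothelial and leukocyte marker lists had summed medians at or below 0.4999 CPM at both ages, and the endothelial gene Cdh5 had no read in any of them, nor had the leukocyte gene Tyrobp. The erythroid list had summed medians of 24.5 and 10.06 CPM in the Neurod1 cells of the earlier and later stage, with highest sums of 1962 and 3688 CPM, and the globin gene Hbb-bs passed 30 CPM in 21 of 50. Tip and acinar genes differed by age, with a summed median of 148 CPM in E13.25 and 2083 CPM in E15.25 Neurod1 cells, against 987 and 43010 CPM in the other epithelial cells. Mesenchyme genes, Col3a1 among them, had summed medians of 11.2 and 199 CPM in Neurod1 cells of the 2 ages. Of the Neurod1 cells, 6 had Cpa1 of at least 1000 CPM or Col3a1 of at least 100 CPM, 5 of them on trunk 2. Well 31 of trunk 2 was the extreme, with 18561 CPM of the acinar enzyme Cpa1, 67.5 CPM of Neurod1 and the lowest depth.

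Within the Neurod1 cells, Neurog3 spanned from no read to 14416 CPM. It passed 30 CPM in 35 cells, lay under 30 CPM in 15 and had no read in 6. To lay out this spread the cells were put into 4 ranges, with limits of 1000 CPM set after the values were seen. A lead hormone means that the highest of Ins1 plus Ins2, Gcg, Sst, Ppy and Ghrl reached 1000 CPM. Without a lead hormone, 23 cells had Neurog3 of at least 1000 CPM, 8 had 30 to 1000 CPM and 8 had under 30 CPM. The other 11 had a lead hormone, and none of them reached 1000 CPM of Neurog3. These ranges are spans of a level and not cell types: 6 cells lay within 2-fold of the limit of 1000 CPM of Neurog3, 3 within 2-fold of that of 30 CPM, and 3 within 2-fold of the hormone limit.

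**Figure D2:**
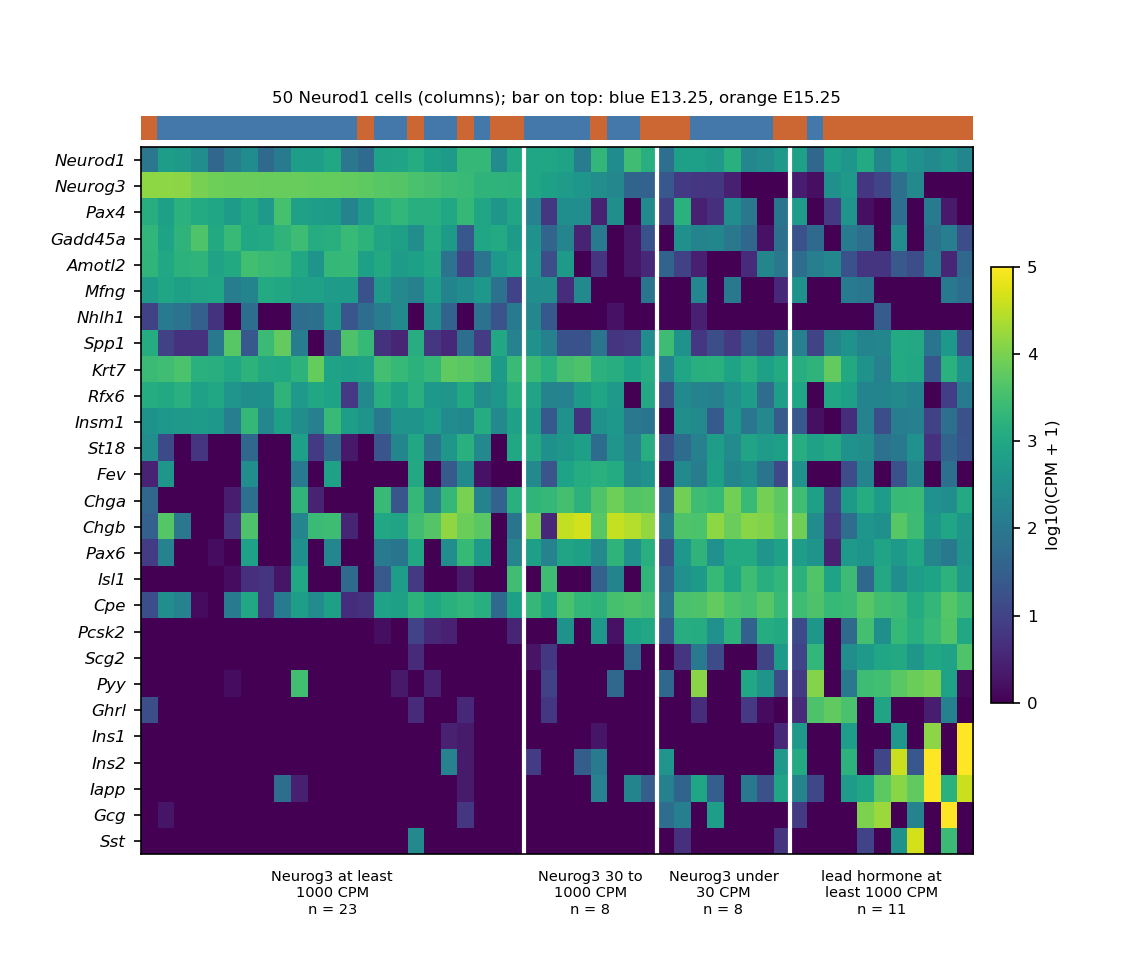
Each column is 1 of the 50 Neurod1 cells and each row a gene, coloured by log10(CPM + 1); the top bar gives the age (blue E13.25, orange E15.25), and white lines part the 4 ranges. Cells with Neurog3 of at least 1000 CPM are mostly dark (few or no reads) for Pcsk2, Scg2 and the hormones, and the 11 cells with a lead hormone are bright for Cpe and Isl1.

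The ranges fell differently on the plates. Neurog3 of at least 1000 CPM was found in 4 of 7, 2 of 2, 7 of 10 and 4 of 10 cells on E13.25 plates 1 to 4, and in 2 of 3, 0 of 5 and 4 of 13 on tip 1, tip 2 and trunk 2. A lead hormone was found in 0, 0, 0 and 1 cell of the E13.25 plates, and in 1, 2 and 7 cells of the E15.25 plates. Every E15.25 plate thus held cells with a lead hormone, and of the E13.25 plates plate 4 did. No test was planned for these counts, and cells of 1 plate are not replicates.

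Cells with Neurog3 of at least 1000 CPM had little granule cargo and high Pax4. Their median Neurog3 was 6452 CPM, and Pax4 passed 30 CPM in all 23, with a median of 918 CPM. Chga had a median of 20.98 CPM and Chgb of 187 CPM, and Fev had a median of 0. Genes of the Neurog3 cascade were high here: median Gadd45a, a growth arrest gene, was 1162 CPM, Amotl2, an angiomotin family member, 946 CPM, the Notch-modifying glycosyltransferase Mfng 554 CPM, and the zinc finger factor Insm1 395 CPM. In these same cells Neurod2, a relative of Neurod1, passed 30 CPM in 18 of 23, and it did so in none of the other 27. The helix-loop-helix factor Nhlh1 passed it in 14 of 23 and in 1 of the other 27.

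Of the 50 cells, 8 had none of Chga, Chgb, Fev and Pax6 at 30 CPM, and 7 of these 8 had at least 1000 CPM of Neurog3 and at least 30 CPM of Pax4. Their Neurod1 was low to middling, from 44.2 CPM in well 76 of E13.25 plate 2 to 286 CPM in well 9 of plate 3. The trunk gene Spp1, which encodes osteopontin, still stood at 6336 CPM in well 61 of E13.25 plate 1, 5035 CPM in well 93 and 3975 CPM in well 12 of plate 3, 2522 CPM in well 21 of plate 1 and 2263 CPM in well 22 of tip 1. It was 105 CPM in well 76 of plate 2 and 4.22 CPM in well 9 of plate 3, so low Spp1 was also seen without these granule genes. The eighth cell, well 11 of trunk 2, differed: it had 5930 CPM of Ghrl, 655 CPM of Neurod1 and 5.65 CPM of Pax4.

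In the 8 cells with 30 to 1000 CPM of Neurog3 Chgb, Fev and Pax6 had their highest medians. Chgb stood at a median of 21309 CPM, with 45936 CPM in well 52 of E13.25 plate 4, the highest value of any Neurod1 cell. Median Chga was 3776 CPM, Fev 574 CPM and Pax6 671 CPM, and St18, a zinc finger factor of the Myt family, stood at 423 CPM against 20.03 CPM in the cells with more Neurog3. Cpe, the carboxypeptidase that trims prohormones, had a median of 2692 CPM against 282 CPM. Amotl2, at 3.62 CPM, and Sox4, at 1.40 CPM, were low, while they stood at 946 and 131 CPM in the cells with more Neurog3.

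The 8 cells with under 30 CPM of Neurog3 and no lead hormone carried factors of later endocrine cells. The LIM factor Isl1 passed 30 CPM in all 8, with a median of 1146 CPM, against 4 of 23 and 4 of 8 cells in the ranges with more Neurog3. The prohormone convertase gene Pcsk2 had a median of 1145 CPM and Chga of 4227 CPM. Chgb stood at 6935 CPM and Fev at 158 CPM, both under the levels of the cells with 30 to 1000 CPM. Well 31 of trunk 2, rich in acinar reads, is among these 8, with 37.5 CPM of Isl1.

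**Figure D3:**
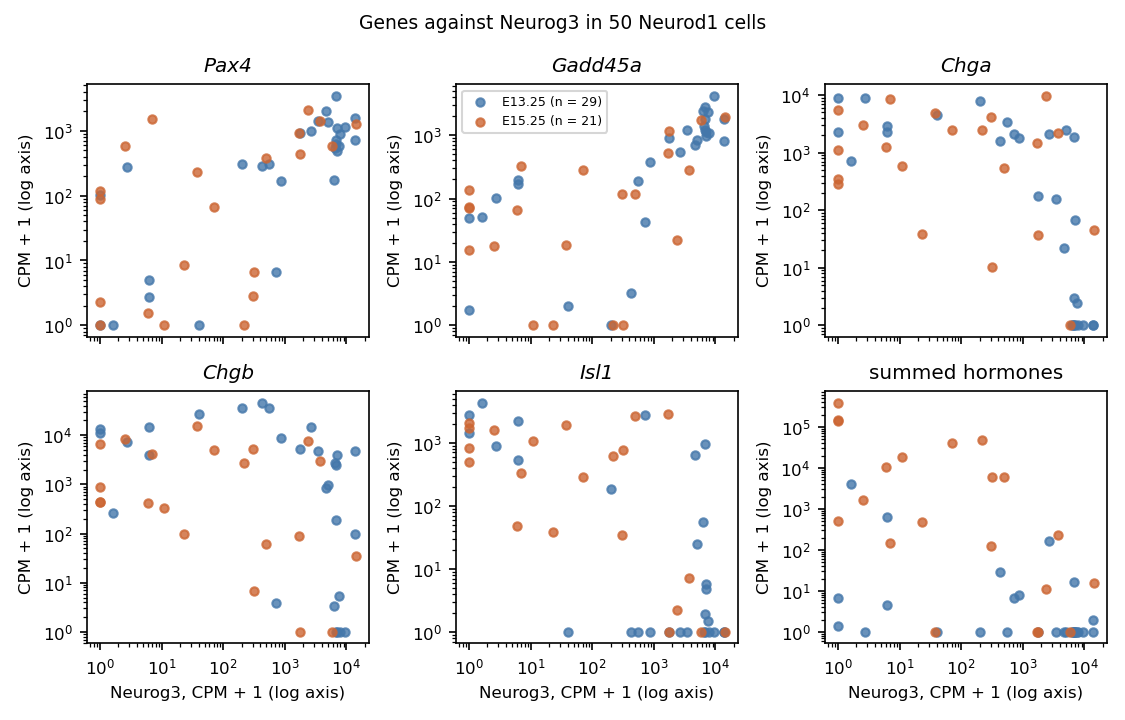
Pax4, Gadd45a, Chga, Chgb, Isl1 and the summed hormones (Ins1, Ins2, Gcg, Sst, Ppy, Ghrl) against Neurog3 in the 50 Neurod1 cells, all in CPM + 1 on log axes (blue E13.25, n = 29; orange E15.25, n = 21). Pax4 and Gadd45a are high at the right of each panel, where Neurog3 is high, and Isl1 and the hormones are high at the left.

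Across the 50 cells, the genes whose level ran most closely with Neurog3 were Sulf2, an extracellular sulfatase (Spearman's rho 0.80), the growth factor gene Mdk (0.78), Gadd45a, the actin-binding Tmsb4x and Dbn1 and the pseudogene Mdk-ps1, which can share reads with Mdk (0.77 each), Neurod2, Amotl2 and Ifitm2 (0.76 each) and Btbd17 (0.75). The most opposed were Cpe and Pcsk2 (-0.82 each), the granin Scg3 (-0.77), the homeobox factor Meis2 (-0.76), Fam183b (-0.74), Cltrn (-0.73), and Entpd3, Rbp4, Cxxc4 and Rap1b (-0.72 each). These are ranks over 7945 genes with a mean of at least 20 CPM, in cells that share plates, and Neurog3 itself had a rho of -0.03 with reads and -0.23 with genes per cell. Within E13.25 (29 cells) the rho with Neurog3 was -0.83 for Chga, -0.71 for Pax6, -0.89 for Cpe and 0.82 for Gadd45a. Within E15.25 (21 cells) it was -0.22 for Chga, -0.16 for Pax6, -0.70 for Cpe and 0.46 for Gadd45a. Pcsk2 stood at -0.78 and -0.76, and Sulf2 at 0.69 and 0.82. With the summed hormones, Scg2 (0.74), Iapp (0.70), which encodes amylin, and the vesicle gene Rab3a (0.66) ranked highest, before 0610040J01Rik (0.62), Spc25 (0.61), Rbp4, Try10 and Amy2b (0.58 each), and Slc16a12 and Pyy (0.56 each). Try10 and Amy2b are digestive enzyme genes of acinar cells. The lowest were Gm3788 (-0.77), Hnrnph1 (-0.73), Rpl37a and Tmsb10 (-0.69 each), Hmgn1 (-0.67), Insm1 and Mdk (-0.65 each), Mdk-ps1 (-0.63), and Gm37486 and Snrpert (-0.62 each). The summed hormones had a rho of -0.24 with reads and 0.34 with genes per cell. Only 11 of the 50 cells had a hormone at 1000 CPM, so these ranks rest in part on low hormone levels. The acinar gene Pnliprp1 (0.52) and the mesenchyme gene Col1a2 (0.49) also ran with the sum. No rho within an age was computed for the sum, and the part of age or stray reads was not tested.

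A lead hormone was found in few cells. Insulin led in 4 cells, glucagon in 3, ghrelin in 3 and somatostatin in 1. Well 39 of tip 1 held 231734 CPM of Ins2 and 159905 CPM of Ins1, well 41 of trunk 2 held 122519 CPM of Ins2, well 63 held 39930 CPM and well 26 held 1124 CPM. Glucagon reached 142877 CPM in well 40 and 17441 CPM in well 30 of trunk 2, and 10384 CPM in well 14 of tip 2. The level differed by over 10-fold among cells led by the same hormone.

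Well 12 of tip 2 held 47505 CPM of Sst. Ghrelin led in well 11 (5930 CPM) and well 42 (3662 CPM) of trunk 2, and in well 42 of E13.25 plate 4 (4006 CPM), the 1 cell of E13.25 with a lead hormone. Only 2 of the 11 had a second of these hormones at 1000 CPM: well 40 of trunk 2, led by glucagon, had 2604 CPM of Sst, and well 42 of trunk 2, led by ghrelin, had 1732 CPM of Ins2. Well 42 of trunk 2 also had the highest Col3a1 of the Neurod1 cells.

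Peptides outside this set crossed the lead hormones. Pyy, which encodes peptide YY, passed 30 CPM in 8 of the 11 cells, among them cells led by insulin (9246 CPM in well 41 of trunk 2), glucagon, somatostatin and ghrelin (11746 CPM in well 42 of E13.25 plate 4). At E13.25 it also reached 13113 CPM in well 47 of plate 4 and 3079 CPM in well 42 of plate 1, 2 cells without a lead hormone. Iapp passed 30 CPM in 9 of the 11, with 95416 CPM in well 41 of trunk 2. On trunk 2, which held 7 of the 11, Iapp also had a read in 51 of 63 other epithelial cells. Its median in those others was 28.7 CPM and its 95th percentile 602 CPM. A level just above 30 CPM on that plate is therefore not read as expression of Iapp. Mafa, a factor of mature beta cells, did not reach 30 CPM in any of the 50 cells. Isl1 passed 30 CPM in all 11 with a lead hormone, Scgn, which encodes secretagogin, in 11, and Scg2 in 9, while Neurog3 passed it in 4.

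At E13.25, hormone reads were rare in the Neurod1 cells: of 29 cells, 3 had any insulin read, 2 any Gcg read, 5 any Ghrl read and none any Sst read. Among the other epithelial cells of the E13.25 plates, no Gcg or Sst read was found. On the E15.25 plates hormone reads were spread more widely. On trunk 2, Ins2 had a read in 41 of 63 other epithelial cells (median 17.4 CPM) and in 7 of 13 Neurod1 cells. On tip 1, where 1 of 3 Neurod1 cells had a read of Ins2, it had a read in 27 of 58 other cells, and on tip 2 Gcg had one in 14 of 60. Median depths on trunk 2 were 639890 reads in Neurod1 cells and 773545 in the others. A low hormone level in a Neurod1 cell of E15.25 is therefore not read as expression. Taken gene by gene, the highest 95th percentile in the other cells was 924 CPM, for Ins2 on tip 1. Ins2 passed 1000 CPM in 3 of 58 other cells on tip 1 and in 3 of 63 on trunk 2. Those 3 on trunk 2 were wells 2, 10 and 50, with 74.6, 519 and 450 CPM of Neurod1. Col3a1 kept them out of the Neurod1 cells, so they do not measure a background. For the sum of Ins1 and Ins2, which sets the lead, no percentile was computed. Well 26 of trunk 2, at 1124 CPM of Ins2, lay close to the 95th percentile of Ins2 in the other cells of its plate, 922 CPM.

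A group of 38 kept cells had at least 30 CPM of Neurog3, under 30 CPM of Neurod1 and under 300 CPM of Col3a1, 29 at E13.25 and 9 at E15.25. All 38 had at least 30 CPM of Epcam, so they are counted among the other epithelial cells. Their median Neurog3 was 250 CPM, against 627 CPM in the Neurod1 cells. St18, Isl1, Scgn and Pax6 passed 30 CPM in none of the 38, and in 35, 27, 29 and 36 of the 50 Neurod1 cells. Insm1 and Rfx6, a winged-helix factor of endocrine precursors, each passed it in 16 of 38, and in 38 and 44 of 50. Spp1 and Hes1 were higher in level in the 38: Spp1 had a median of 7408 CPM in the 38 and 84.97 CPM in the Neurod1 cells, and the Notch target Hes1 of 362 and 7.77 CPM. Sox4, at 94.04 and 42.8 CPM, and Amotl2, at 477 and 120 CPM, were also present in the 38. Neither was confined to them: Sox4 passed 30 CPM in 136 and Amotl2 in 204 of all 311 other epithelial cells. With each cell thinned to 100000 reads, Rfx6 had at least 3 reads in 16 of the 38 and in 44 of the 50.

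The question how the rest of the transcriptome differed was put to summed counts of 5 plates that held at least 5 Neurod1 cells and 5 other epithelial cells: E13.25 plates 1, 3 and 4, tip 2 and trunk 2. Since Neurod1 divided the cells, these tests describe how other genes go with Neurod1, and the 3 genes of the rule and the markers above are left out. The others include 9 cells with Neurod1 that Col3a1 kept out of the Neurod1 cells. By edgeR's quasi-likelihood test with the plate as a block, 1585 of 19244 genes (8.24%) passed an adjusted p of 0.05, 615 higher (3.20%) and 970 lower (5.04%) in the Neurod1 cells. The excess of lower genes did not hold in every fit: there were 428 higher and 418 lower without tip 2, 361 and 346 without trunk 2, and 140 and 79 with at least 10 cells per sum. DESeq2 called 5175. Leaving out 1 plate at a time gave from 584 genes, without E13.25 plate 4, to 846, without tip 2. The median log2 change of all genes was -0.56, so changes near that value are no departure from the bulk of genes. RLE scaling moved it to -0.42.

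The 10 largest rises by the naming rule were Lhx1os, Ap3b2, Pnmal1, Gm14616, Resp18, Pyy, Pou3f4, Pcsk2, Sphkap and Cyp4b1. Ap3b2, the neuronal subunit of an adaptor complex for vesicle cargo, had 98.0, 98.7, 140, 184 and 41.5 CPM in the Neurod1 cells of the 5 plates in the order above, and at most 0.527 CPM in the others. The classes did not overlap, and the log2 change was 10.57 ± 0.975 (SE, adjusted p = 0.00354). Pou3f4, a POU factor of alpha cells, had 204, 114, 126, 11.3 and 124 CPM against at most 0.521 CPM (log2 change 9.82, adjusted p = 0.00708). Lhx1os, a noncoding RNA antisense to a LIM factor gene, had a mean of 54.7 CPM against 0.0596 CPM, where reads of the other strand cannot be told apart. The call of Pnmal1 was lost without any 1 of 4 plates and that of Gm14616 without E13.25 plate 1 or plate 4, with adjusted p up to 0.0749 and 0.0542. The other 8 kept it with each plate left out.

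The 10 largest falls were P2rx1, Reg1, Tinag, Cel, Pnliprp1, Car9, Vtn, Cckar, Cenpf and Fmo2. Cel and Pnliprp1 encode lipases of acinar juice, P2rx1 an ATP-gated channel, Cckar the receptor for cholecystokinin and Cenpf a kinetochore protein. P2rx1 stood at 290, 428, 264, 251 and 204 CPM in the other epithelial cells and at 0.364, 0.388, 0.178, 2.54 and 5.77 CPM in the Neurod1 cells, a log2 change of -8.14 ± 0.971 (SE, adjusted p = 0.00628). Vtn, which encodes vitronectin, had a mean of 350 CPM against 1.38 CPM (log2 change -7.63, adjusted p = 0.00628). For all 10, trunk 2 had the highest level left in the Neurod1 cells, as with Pnliprp1 at 1174 CPM against at most 351 CPM on the other plates, and it also held well 31. The call of Reg1 was lost without any 1 of 4 plates (adjusted p up to 0.0669), and the other 9 kept theirs.

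Granule and exocytosis genes rose in large part. Of 23 measured genes of the list, Chga and Chgb left out, 19 rose and none fell, with a median log2 change of 5.51 against -0.56 over all genes. Cpe rose from 42.99, 11.7, 37.99, 115 and 270 CPM in the other epithelial cells to 2143, 1691, 2468, 3167 and 2390 CPM, a log2 change of 5.41 ± 0.617 (SE, adjusted p = 0.00579), with no overlap. Ptprn2, a membrane protein of dense-core granules, rose by 5.51 ± 0.476, and Pam, the enzyme that amidates peptides, by 3.89 ± 0.311, each with adjusted p = 0.00354. Syt13, a synaptotagmin, stood at a mean of 1013 CPM against 36.4 CPM, and among the Neurod1 cells it passed 30 CPM in 46 of 50. With each plate left out in turn, 12 of the 19 kept the call, and Scg2, Scg3, Scg5, Pcsk1, Snap25, Ptprn and Vamp2 lost it at least once. The largest change was that of Resp18 (9.90 ± 1.27, SE). Of those not called, Stx1a had the highest mean, 56.1 CPM against 12.5 CPM.

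**Figure D4:**
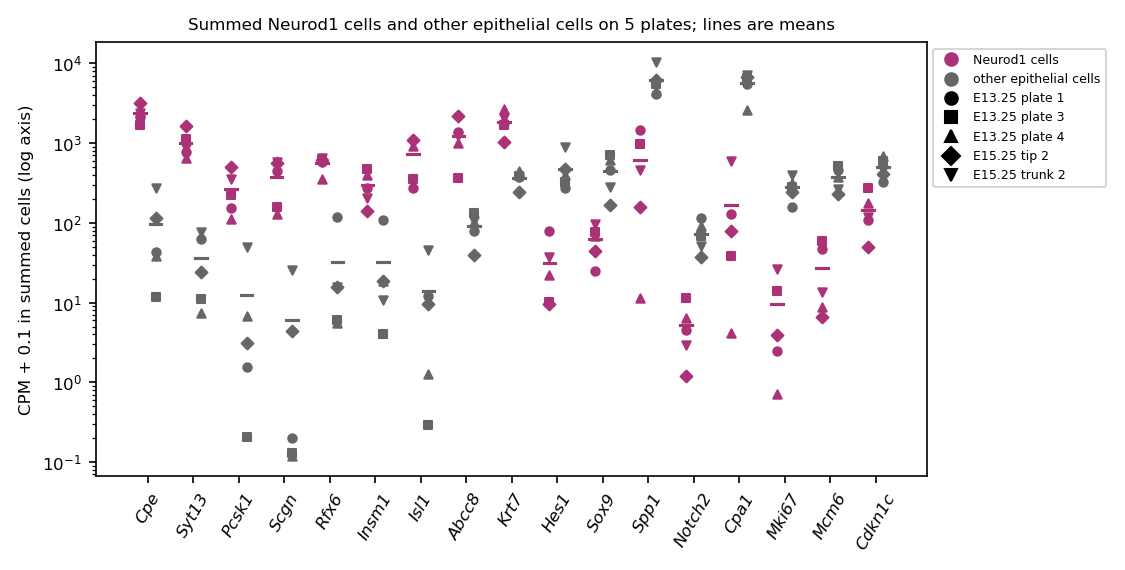
CPM + 0.1 (log axis) of 17 genes in summed Neurod1 cells (purple) and other epithelial cells (grey) of 5 plates, 1 point per plate with its marker shape, and lines at the means. Granule and endocrine genes lie to the left with purple above grey, and trunk, Notch, acinar and cell cycle genes to the right with grey above purple, while Krt7 is higher in Neurod1 cells.

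Of 24 genes of the Neurog3 cascade, 13 rose and none fell (median log2 change 3.65). Rfx6 rose from 120, 5.97, 5.49, 15.6 and 15.7 CPM to 575, 623, 354, 616 and 647 CPM, a log2 change of 5.25 ± 0.655 (SE, adjusted p = 0.00708), with no overlap. The largest changes were those of Nhlh1 (9.64 ± 1.23) and St18 (9.47 ± 1.31). Runx1t1, a transcriptional corepressor, rose by 3.76 ± 0.334 (adjusted p = 0.00354), and Cck, which encodes cholecystokinin, stood at a mean of 873 CPM against 3.79 CPM, with no read in the Neurod1 cells of tip 2. Amotl2 and Sox4 were not called: their log2 changes were 0.26 ± 0.569 and 0.09 ± 0.463 (SE, adjusted p = 0.817 and 0.924). Both were widespread in the other epithelial cells. Amotl2 passed 30 CPM in 204 of the 311 and in 32 of 50 Neurod1 cells, and Sox4 in 136 and 27. Neurog3 itself, the first factor of the cascade, had a mean of 2301 CPM against 159 CPM and was not called (log2 change 4.01 ± 1.16, adjusted p = 0.0756). The calls of Insm1, Nkx2-2, Hes6, Gadd45a and Mfng were lost with at least 1 plate left out, at adjusted p of 0.125 for Hes6 and 0.119 for Gadd45a.

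Among 19 measured endocrine transcription factors besides Pax4 and Pax6, 11 rose and none fell (median log2 change 3.86). Irx2, an Iroquois factor of alpha cells, rose by 7.97 ± 1.11 (SE, adjusted p = 0.00872). Peg3, an imprinted zinc finger gene, had the highest mean of those not called (3783 against 2343 CPM, adjusted p = 0.0642). Pdx1, the pancreas master factor that beta cells keep, differed by less than its error, with a log2 change of 0.44 ± 0.815 (SE). Among others, the calls of Isl1, Nkx6-1, Nkx2-2, Insm1, Foxa2 and Etv1 were lost with at least 1 plate left out, that of Isl1 without tip 2 alone (adjusted p = 0.05).

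Of 8 hormone genes, 6 rose: Ins2, Gcg, Sst, Pyy, Ghrl and Iapp. These rises rest on the few cells above. In the Neurod1 cells of E13.25 plates 1, 3 and 4, Gcg stood at 0, 30.9 and 0 CPM, and at 2895 and 16211 CPM on tip 2 and trunk 2. Pyy was the one with reads in the Neurod1 cells of all 5 plates at over 60 CPM (386, 66.3, 2295, 939 and 1607 CPM against at most 19.1 CPM). Ins1 was not called (log2 change 2.07 ± 1.28). The calls of Ins2 and Sst were lost with a plate left out (Sst without tip 2, adjusted p = 0.0608).

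Of 9 measured genes of glucose sensing and insulin secretion, 3 rose and none fell (median log2 change 3.66). Abcc8, the sulfonylurea receptor of the potassium channel, rose by 3.66 ± 0.592 (adjusted p = 0.0125), and Slc30a8, the granule zinc transporter, was called as well but lost the call without any 1 of 4 plates. G6pc2, the glucose-6-phosphatase of islets, was not called at a mean of 112 against 6.12 CPM (adjusted p = 0.0694). Neither was the channel pore Kcnj11 (log2 change 2.29 ± 0.850, adjusted p = 0.140), nor was the glucose transporter Slc2a2 (-2.77 ± 1.15, adjusted p = 0.177). Of 5 measured genes of serotonin and biogenic amine synthesis and transport besides Fev, none was called, and Tph1, the serotonin enzyme, passed 30 CPM in 2 cells.

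**Figure D5:**
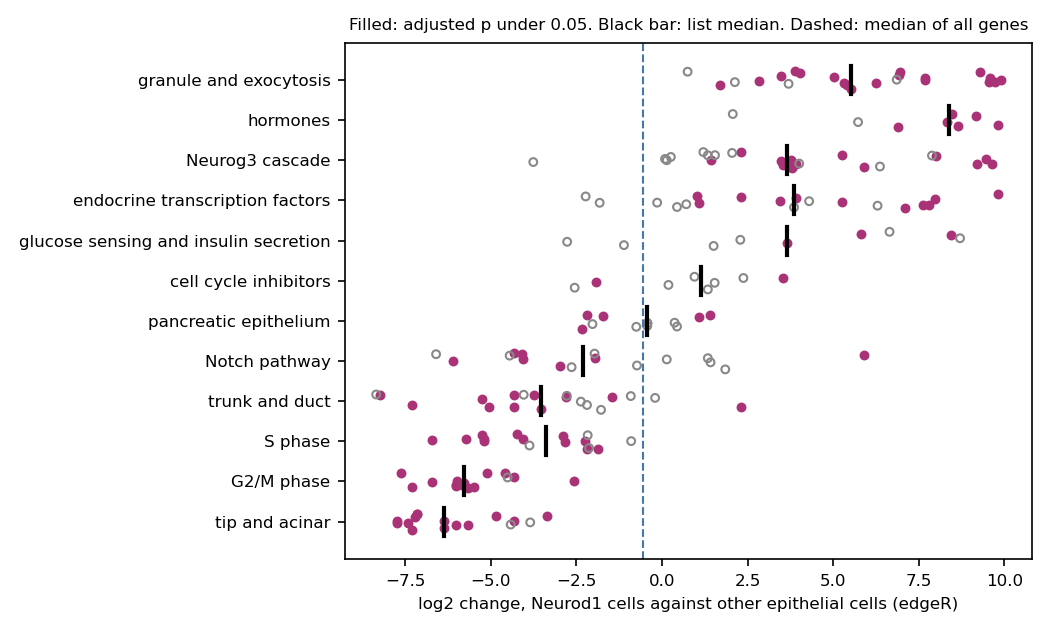
Log2 change of Neurod1 cells against other epithelial cells (edgeR) for each measured gene of 12 lists; filled points passed an adjusted p of 0.05, black bars are list medians and the dashed line is the median of all genes at -0.56. The medians run from 8.40 for hormones to -6.38 for tip and acinar genes.

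Genes of the cell cycle were low. Of 16 S phase genes 12 fell and none rose (median log2 change -3.38), and of 15 genes of G2 and M phase 14 fell and none rose (median -5.78). Mki67, the proliferation antigen, stood at 159, 281, 317, 246 and 396 CPM in the other epithelial cells and at 2.37, 13.7, 0.622, 3.804 and 26.5 CPM in the Neurod1 cells (log2 change -5.66 ± 0.757, SE, adjusted p = 0.00825). It passed 30 CPM in 6 of 50 Neurod1 cells, in 13 of the 38 cells with Neurog3 and no Neurod1, and in 179 of the 311 others. Mcm4, a replication helicase subunit, fell by 2.90 ± 0.264 (SE, adjusted p = 0.00354). The largest falls were those of Cdc6 and Mcm5 in S phase (-6.73 and -5.73) and of Cenpf and Cdk1 in G2 and M phase (-7.62 and -7.30), of which Cdc6 lost the call without any 1 of 4 plates. Plk1 was not called (adjusted p = 0.0514). Mcm2, of the same helicase as Mcm4, was not called (adjusted p = 0.0507), and its median was 223 CPM in Neurod1 cells with Neurog3 of at least 1000 CPM and 3.77 CPM in those with a lead hormone. With each plate left out in turn, 9 of the 12 and 9 of the 14 kept the call. The inhibitor gene Cdkn1c also fell, by 1.92 ± 0.295 (SE, adjusted p = 0.0114), and Cdkn1a, which encodes p21, was not called (mean 572 against 204 CPM, adjusted p = 0.122). Of 8 inhibitors of the cycle, Gadd45a rose and Cdkn1c fell, and Btg2 had the highest mean of the rest (1274 against 815 CPM, adjusted p = 0.115).

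Of 19 trunk and duct genes, 10 fell and 1 rose (median log2 change -3.52), and 7 of the 11 calls held with each plate left out. The progenitor factor Sox9 fell from 460, 700, 610, 166 and 279 CPM to 24.6, 75.8, 69.04, 44.1 and 95.6 CPM (log2 change -2.79 ± 0.391, SE, adjusted p = 0.00873). The largest falls were those of Vtcn1 (-8.23) and Onecut1 (-7.29), and the call of Vtcn1 was lost without E13.25 plate 3, tip 2 or trunk 2. Muc1 was not called (mean 68.2 against 327 CPM, adjusted p = 0.0588). The one that rose was Krt7, a keratin of ducts: it stood at 1775, 1706, 2673, 1021 and 2067 CPM in the Neurod1 cells and at 372, 389, 449, 243 and 375 CPM in the others, a log2 change of 2.31 ± 0.144 (SE, adjusted p = 0.00148). It passed 30 CPM in 49 of 50 Neurod1 cells and in 35 of the 38 cells with Neurog3 and no Neurod1. Spp1 was called (log2 change -4.32, adjusted p = 0.0455) but lost the call without any 1 of 4 plates, at adjusted p up to 0.136, and its level in Neurod1 cells ran from 11.3 CPM on E13.25 plate 4 to 1443 CPM on plate 1.

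Of 16 Notch pathway genes, 6 fell and 1 rose, and 4 of these 7 calls held with each plate left out. The falls of Notch1 and Dlk1 were each lost without any 1 of 4 plates, at adjusted p up to 0.134 and 0.0995. The receptor gene Notch2 fell by 4.07 ± 0.574 and the target Hes1 by 4.32 ± 0.605 (SE, adjusted p = 0.00873 each), and the target Heyl by 6.10 ± 0.749 (adjusted p = 0.00657). Mfng rose by 5.91 ± 1.05 (adjusted p = 0.0172), a call lost without E13.25 plate 3 or plate 4, at adjusted p up to 0.0560. The ligand Dll1 differed by less than its error (log2 change 0.14 ± 0.480). Within the Neurod1 cells, Dll1 passed 30 CPM in 14 of 23 cells with Neurog3 of at least 1000 CPM and in 4 of the other 27.

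Of 16 tip and acinar genes, 14 fell and none rose (median log2 change -6.38), and 10 of the 14 kept the call with each plate left out. Cela2a, Clps, Nr5a2 and Bhlha15 lost it, Bhlha15 in all 5 fits, at adjusted p up to 0.108. Cel and Pnliprp1 had the largest changes (-7.74 each), followed by Ctrb1 (-7.41), and Rnase1 was not called. The low level was not particular to the Neurod1 cells. Cpa1 passed 30 CPM in 22 of 50 of them, in 15 of the 38 cells with Neurog3 and no Neurod1, and in 254 of the 311 others. For Ctrb1 these counts were 22, 13 and 239. The growth-promoting factor Myc fell from 555, 236, 168, 148 and 116 CPM to 2.37, 7.63, 7.11, 2.38 and 2.69 CPM (log2 change -5.67 ± 0.533, SE, adjusted p = 0.00354). Of 11 genes of pancreatic epithelium, 2 rose and 3 fell, and the tight junction gene Cldn4 and the factor Foxa2, which rose, each lost the call with plates left out. Cldn3, another tight junction gene, fell by 2.35 ± 0.304, and Cldn6 was not called. Krt18, a simple epithelial keratin, fell by 2.20 ± 0.301 (adjusted p = 0.00847). Vim, the filament of motile cells, fell by 2.31 ± 0.354 (adjusted p = 0.0114), 1 of 2 falls among 11 delamination and motility genes. Of 8 measured genes of neural crest and neurons, Elavl4, a neuronal RNA-binding protein, rose by 6.4 ± 0.498 (adjusted p = 0.00354), and the neuronal tubulin gene Tubb3 rose but lost the call without E13.25 plate 4 or tip 2. Erbb3 fell, a call lost without any 1 of 4 plates, and the receptor gene Ret was not called (mean 131 against 46.4 CPM). The glial factor Sox10 was at a mean of 7.71 CPM in Neurod1 cells and 7.12 CPM in the others. Of 8 mesenchyme genes Pdgfrb fell (-4.84 ± 1.03, SE), and no gene was called among 5 of mesothelium, 4 of endothelium, 3 of leukocytes and 6 of erythroid cells. The rule kept Col3a1 under 300 CPM in the Neurod1 cells alone, and 39 of the 311 others (12.5%) reached that level. A fall of mesenchyme genes is thus not independent of the rule. Of 12 immediate early genes Atf3, Egr2, Ier2 and Jun fell, and none of these 4, nor Pdgfrb, kept the call with every plate left out. Fos, the best known of them, stood at a mean of 1843 and 1812 CPM.

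The ages were compared within the Neurod1 cells, with E13.25 plates 1, 3 and 4 against tip 2 and trunk 2. By edgeR's quasi-likelihood test, 0 of 13606 genes (0%) passed an adjusted p of 0.05, 901 had an unadjusted p under 0.05, and DESeq2 called 371. Hormones had the highest list median, 7.14 on the log2 scale, with none called. Iapp stood at 84.5, 4.201 and 46.7 CPM at E13.25 and at 695 and 10880 CPM at E15.25 (adjusted p = 0.651), and Sst had no read at E13.25 and 1065 and 320 CPM at E15.25. Pcsk2 stood at 325, 223 and 387 CPM against 1544 and 1047 CPM, a log2 difference of 2.28 ± 0.372 (SE, adjusted p = 0.492), without overlap. Gadd45a ran the other way, at 859, 1467 and 389 CPM against 65.3 and 289 CPM (log2 difference -2.16 ± 0.781, adjusted p = 0.729). The age groups held different numbers of cells in the Neurog3 ranges, and tip and acinar genes, with a list median of 5.09, moved with age too. The part of either in these differences was not tested. In counts summed per plate, more cells with a transcript and more transcript per cell cannot be told apart. Counted cell by cell, a lead hormone was found in 1 of 29 Neurod1 cells at E13.25 and in 10 of 21 at E15.25.

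Neurod1 cells with and without 30 CPM of Neurog3 could be compared on E13.25 plate 4 and trunk 2, the plates with 3 cells of each. Neurog3 aside, edgeR's quasi-likelihood test called 0 of 11340 genes (0%), with 555 at an unadjusted p under 0.05, and DESeq2 called 326. The Neurog3 cascade had a median log2 difference of 2.06, positive in 22 of 22 measured genes, against 0.14 over all genes, and none was called. On plate 4 and trunk 2, Amotl2 stood at 240 and 497 CPM in cells with Neurog3 and at 56.3 and 36.6 CPM in those without, and Cck at 2224 and 408 CPM against 119 and 125 CPM. Cpe stood at 1699 and 1628 CPM with Neurog3 and at 3954 and 3235 CPM without (log2 difference -1.24 ± 0.346, SE, adjusted p = 0.999). Each of these 3 genes lay on the same side on both plates, as in the ranges above, and none passed after adjustment over the genes tested.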

How the data were processed

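Full-length single-cell RNA-seq was measured in 672 wells. The values are unnormalized read counts per gene as deposited; the submitters' processing notes list GSNAP, HTSeq 0.5.3p3 and the build mm10. The annotation release and strand setting are not given in the sources used here, and near-identical genes (Ins1 and Ins2) may share reads. Reads outside genes (53.3% of the counted reads of kept cells) and spike-ins were left out, and CPM was taken over Ensembl genes. The members and lists were chosen with earlier results of these data known. Counts were summed per plate and class (at least 5 cells, or 3 for Neurog3) and tested with edgeR 4.0.16 (TMM, filterByExpr, plate as block except between ages; Benjamini-Hochberg, threshold 0.05) in R 4.3.3; SE is the log2 change over the root of F. DESeq2 1.42.0 was an alternative. The plate blocks pair classes of the same plate. Scripts were tested on simulated data. Named genes were the 10 largest changes in each direction among called genes with at least 50 CPM in the higher class and 1 direction on every plate, in lists those of largest change if called and of highest level if not, and the 10 highest and lowest correlations; all further genes and cells named were picked after their values were seen, many for keeping the call with each plate left out. Correlations are Spearman's over cells. No doublet caller was run on these sorted single cells. Some genes of the lists enter the counts but are not reported here.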

Additional observations from a re-analysis of the deposited data

Results flagged for a closer look

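In 10 kept cells Neurod1 reached 30 CPM but Col3a1 was at least 300 CPM, and they were left out of the Neurod1 cells. Their median Neurod1 was 67.02 CPM, against 520 CPM in the Neurod1 cells. They lay on E13.25 plate 1 (1 cell), tip 1 (1), tip 2 (5) and trunk 2 (3), and 9 of them had Epcam of at least 30 CPM. Well 92 of tip 1 had 1064 CPM of Neurod1, 3048 CPM of Neurog3 and 4437 CPM of Col3a1, and well 50 of trunk 2 had 450 CPM of Neurod1, 67401 CPM of Ins2 and 12467 genes.

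For Ddc, the decarboxylase of amine synthesis, Neurod1 cells lay below the other epithelial cells on each of the 3 E13.25 plates and above them on both E15.25 plates. The log2 ratios, after adding 1 CPM, were -2.86, -0.09 and -0.98 on E13.25 plates 1, 3 and 4, so plate 3 hardly differed. On tip 2 and trunk 2 they were 0.84 and 1.05. Their mean was higher by 2.26 at E15.25. Neither the sign nor the difference was tested for this gene alone. A fit with a class by age term called 0 of 19244 genes by edgeR (864 at an unadjusted p under 0.05).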

How the results depend on the processing

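For Neurod1 cells against other epithelial cells (1585 genes called), DESeq2 called 5175, at least 10 cells per sum (3 plates) left 219, and leaving out 1 plate gave 584 to 846. Without the plate as a block, which pairs the classes of a plate (no replicate block), it called 1973. RLE scaling, no filter on low counts, equal weight per cell, fewer possible doublets, a stricter Neurod1 limit and others without Neurog3 gave 1407 to 1644. Of 132 called genes of the lists and the naming rule, none reversed in the fits that tested it (128 with no replicate block), but 93 lost the call with at least 10 cells per sum, 28 to 41 with 1 plate left out and 23 with no replicate block. Between ages (0 called), DESeq2 called 371, no filter on low counts 97, leaving out the 5% of cells with the most genes 1, at least 3 cells per sum 2 and at least 10 cells 1. Chosen after seeing the data, removal of the 6 cells rich in Cpa1 or Col3a1 gave 2, and plate 4 alone at E13.25 gave 20. Leaving out any 1 plate gave 0. No paired analysis was possible because no plate holds both ages. By Neurog3 (0 called), DESeq2 called 326, no filter 49 and a limit of 100 CPM of Neurog3 3. Leaving out cells with a lead hormone, chosen after seeing the data, gave 4, and the fit with no replicate block gave 0. Fits with Neurod1 of at least 100 CPM, with at least 5 cells, or without either plate had 2 sums left and could not be fitted. The age difference in share ran from -11.0 to -4.95 percentage points with 1 plate left out, and from -8.77 to -3.59 under the other settings. The few cells per plate (5 to 13) and the 5 plates limit what these tests can call.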
